A study of Mus musculus with 18 samples.

Results

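The 10 genes described here carry the insulin, insulin-like growth factor (IGF) and myostatin signals in skeletal muscle: the ligands Igf1, Igf2 and Mstn, the ligand inhibitor Fst, the receptors Insr and Igf1r, the adaptors Irs1 and Irs2, the kinase Akt2 and the glucose transporter Slc2a4. They were chosen by name and are 10 of the 46725 genes in the files, with 194 of the 391858 exon bins (the non-overlapping pieces into which the exons of a gene are divided for counting). All 10 had enough reads to be tested in both muscles.

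RNA was sequenced from the gastrocnemius and quadriceps muscles of 20-week-old mice of the FVB strain, in 3 groups of 3 mice per muscle, 18 libraries in all. WT mice carried no transgene. HSA-LR mice, a model of myotonic dystrophy type 1 (DM1), carry a human skeletal actin transgene with a long CTG repeat in its 3′ untranslated region (UTR), transcribed in skeletal muscle from the actin promoter, so that the repeat RNA is made in muscle fibers and not in the other tissues affected in patients. The third group was HSA-LR mice given Pip6a-PMO, a morpholino antisense oligomer against the CUG repeat joined to the cell-penetrating peptide Pip6a, by intravenous injection. The sample labels call the other groups untreated, although the protocol that all 18 samples share lists an injection of Pip6a-PMO or saline at 160 µL per mouse. The dose and interval of the sequenced mice are not given in those labels.

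Insulin and the IGFs bind receptor tyrosine kinases on the fiber, which phosphorylate the Irs adaptors. These recruit phosphoinositide 3-kinase and activate Akt, which moves the transporter encoded by Slc2a4 (GLUT4) to the cell surface and promotes protein synthesis and growth. Myostatin, a ligand of the TGF-β family made by muscle itself, restrains growth through activin receptors and Smad2 and Smad3, and follistatin (Fst) binds and neutralizes it. In DM1, sequestration of MBNL proteins by the repeat RNA is known to favor the Insr isoform that lacks exon 11.

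Library totals ran from 98916844 to 143135976 counts, and the 10 genes were read deeply except Fst, with 167 to 427 counts per library. The sex labels and the data disagreed for a pair of WT mice: mouse 2 was labelled female, but the Y-linked gene Ddx3y had 62 counts (gastrocnemius) and 57 counts (quadriceps) in WT mouse 3 and 4264 to 10841 counts in all other libraries. Calls of the 10 genes that changed without WT mouse 2 or 3 are given both ways. Coverage of the 5′ relative to the 3′ part of genes also varied, from a ratio of 0.512 in the gastrocnemius of treated HSA-LR mouse 3 to 0.772 in the quadriceps of treated HSA-LR mouse 2. Muscle fiber markers (7 genes, among them Ckm and Acta1) summed to between 115000 and 184000 CPM in each library, where CPM stands for counts scaled to a common library size, and none was at 0.

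At the gene level, adjusted P is edgeR's quasi-likelihood P value with Benjamini-Hochberg adjustment over all genes tested, and a gene was called at an adjusted P under 0.1. In gastrocnemius, 4 of the 10 genes were called between HSA-LR and WT mice, Insr higher and Irs1, Akt2 and Mstn lower, where 15.5% of all 15625 genes tested were called, 8.6% higher and 6.94% lower. In quadriceps, Irs1, Akt2 and Mstn were again called lower, 3 of 10, against 20.3% of 15574 genes called and 9.31% called lower. Between treated and untreated HSA-LR mice, 1 of 10 genes was called in gastrocnemius, Akt2, which was higher, against 10% of all genes called and 4.49% called higher. In quadriceps none was called in that comparison by edgeR or limma voom, where edgeR called 13.8% of all genes. Of the 10, 4 had an unadjusted P under 0.05, beside 4090 of all 15574 genes. DESeq2, whose share of all genes is not given here, called 3. Between treated HSA-LR and WT mice, Irs1 alone was called in gastrocnemius, lower, where 1.04% of all genes were called and 0.448% were lower. In quadriceps that comparison called none of the 10 by edgeR or limma voom, where edgeR called 1.41% of all genes. There 4 of the 10 had an unadjusted P under 0.05, beside 1947 of all 15574 genes. DESeq2 called 3, and its share of all genes is again not given, so these 3 cannot be set against edgeR's share. The median log2 fold change of the 10 genes in HSA-LR against WT mice was -0.36 in gastrocnemius and -0.21 in quadriceps, beside -0.01 and 0.005 over all genes.

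**Figure D1:**
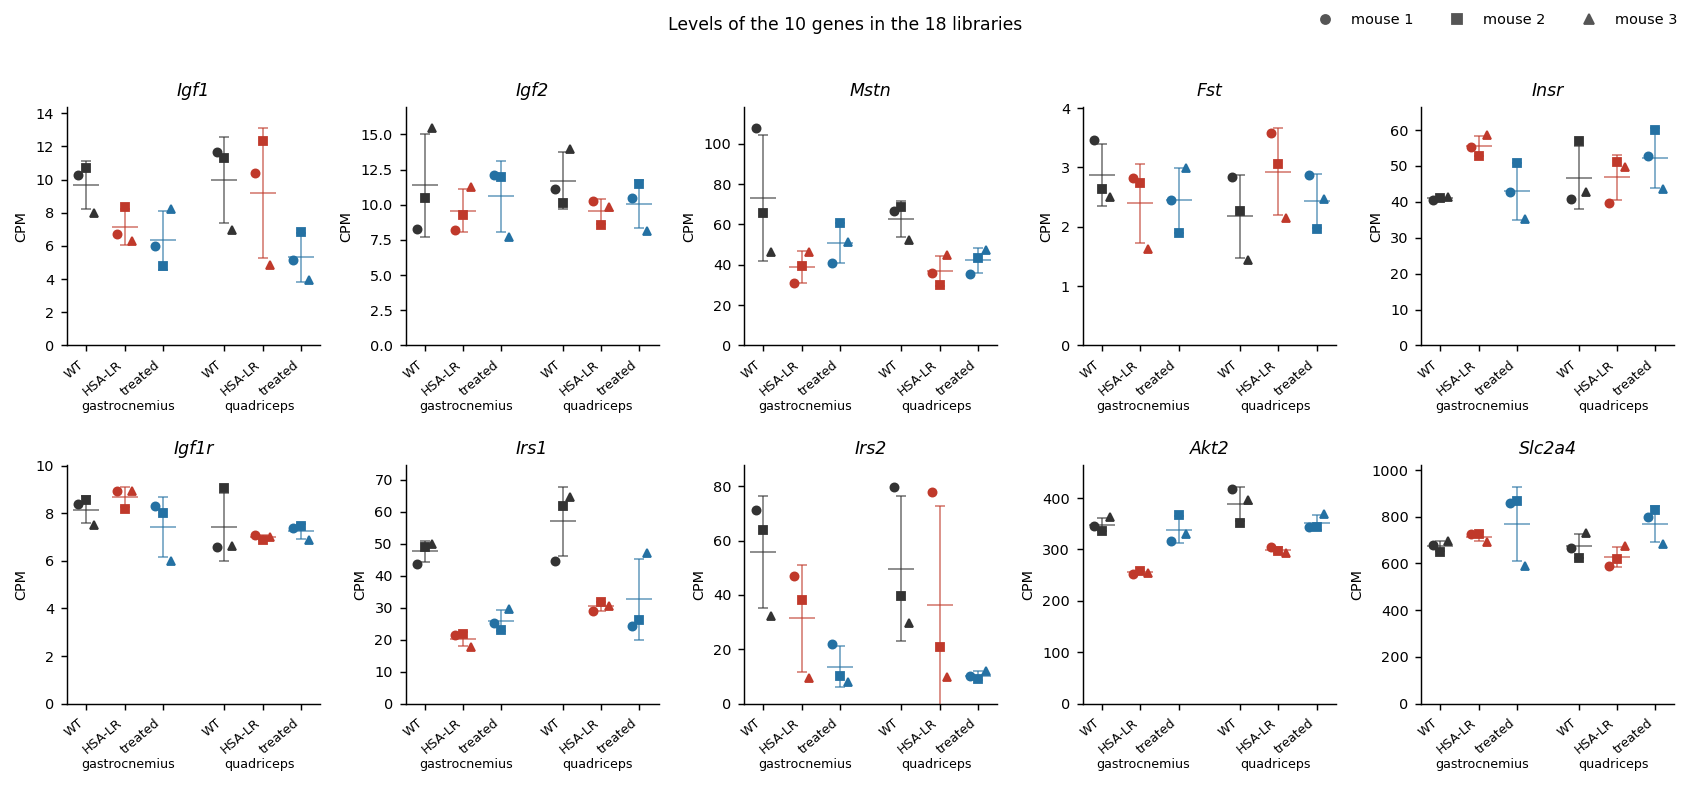
Level of each of the 10 genes in every library (CPM, vertical axis from 0), by group and muscle: WT black, HSA-LR red, treated HSA-LR blue, marker shape for mouse 1, 2 or 3, bars for mean ± SD (n = 3, ended at 0 for Irs2). Irs1 and Akt2 in HSA-LR mice sit below all WT libraries of the same muscle, while Irs2 spreads from 8.111 to 79.92 CPM.

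Per kilobase of exon, the levels in WT gastrocnemius spanned a wide range. Slc2a4 was highest at 194.0 CPM per kb, followed by Akt2 at 48.84, Mstn at 27.07, Irs2 at 8.831 and Irs1 at 5.208 CPM per kb. Insr (2.982), Igf2 (1.989), Igf1 (0.9754) and Igf1r (0.4856 CPM per kb) followed. In this order the libraries of Irs2 and Irs1 overlapped, so these neighbours could not be separated, and the other neighbours did not overlap. Fst has no exon length in the annotation version used and was left out of the order. None of the 10 was called as different between gastrocnemius and quadriceps of WT mice (edgeR, smallest adjusted P = 0.582, none at an unadjusted P under 0.05, none by limma voom and none with the mouse as a block), where 0.297% of all genes were.

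The growth factor ligands Igf1 and Igf2 were expressed at low levels and did not pass edgeR's test in any comparison. Igf1, on mouse chromosome 10, encodes a growth factor that muscle also makes locally. In gastrocnemius it was at 10.26, 10.72 and 8.007 CPM in WT mice 1, 2 and 3, at 6.72, 8.356 and 6.3 CPM in HSA-LR mice, and at 5.99, 4.772 and 8.245 CPM in treated HSA-LR mice. The groups overlapped, with the lowest values in HSA-LR and treated mice, and the log2 fold change was -0.45 ± 0.205 (SE) for HSA-LR against WT (adjusted P = 0.208) and -0.61 ± 0.205 for treated HSA-LR against WT (adjusted P = 0.314). In quadriceps Igf1 was at 11.67, 11.28 and 6.978 CPM in WT, 10.41, 12.32 and 4.834 CPM in HSA-LR and 5.129, 6.85 and 3.935 CPM in treated HSA-LR mice. There the treated libraries all lay below the WT libraries, but the difference did not pass the test (-0.90 ± 0.349, adjusted P = 0.336). Treated against untreated HSA-LR quadriceps gave -0.79 ± 0.348 (adjusted P = 0.189), which DESeq2 called (-0.78, adjusted P = 0.0997), as did edgeR without HSA-LR mouse 3 (-1.09, adjusted P = 0.0476).

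Igf2, on chromosome 7, encodes a growth factor that is abundant before birth and low in adult muscle. It ranged from 7.7 to 15.42 CPM over the 18 libraries, with the highest value in the gastrocnemius of WT mouse 3. Its groups overlapped in every comparison, and its log2 fold change for HSA-LR against WT was -0.26 ± 0.247 in gastrocnemius (adjusted P = 0.569) and -0.30 ± 0.161 in quadriceps (adjusted P = 0.269).

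Mstn, on chromosome 1 (53061640 to 53068079, GRCm38, plus strand), encodes myostatin. In quadriceps it was at 66.65, 68.71 and 52.48 CPM in WT mice, at 36.11, 29.88 and 44.72 CPM in HSA-LR mice and at 35.55, 43.31 and 47.5 CPM in treated HSA-LR mice. The WT libraries lay above all others, and Mstn fell by 40.9% in HSA-LR mice (log2 fold change -0.76 ± 0.17, adjusted P = 0.0198), a call that held in all 20 alternative analyses. Treated mice were at 0.676 times the WT level, with no overlap, but this did not pass edgeR's test (-0.57 ± 0.17, adjusted P = 0.224), nor did treated against untreated HSA-LR mice (0.19 ± 0.17, adjusted P = 0.493). DESeq2 called the difference of treated from WT mice (-0.57, adjusted P = 0.062). In gastrocnemius Mstn was at 107.6, 65.54 and 46.53 CPM in WT, 30.96, 39.38 and 46.54 CPM in HSA-LR and 40.82, 60.71 and 51.44 CPM in treated HSA-LR mice. Here the lowest WT library met the highest HSA-LR library, and the call (-0.92 ± 0.285, adjusted P = 0.0752) was lost without WT mouse 1 (-0.54, adjusted P = 0.205), without WT mouse 2 (adjusted P = 0.124) and without each HSA-LR mouse.

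Fst, on chromosome 13, encodes follistatin. It was the lowest of the 10 genes in counts, from 1.432 CPM in the quadriceps of WT mouse 3 to 3.582 CPM in that of HSA-LR mouse 1. All its groups overlapped. Its log2 fold change for HSA-LR against WT was -0.27 ± 0.247 in gastrocnemius and 0.43 ± 0.276 in quadriceps (adjusted P = 0.551 and 0.356), opposite in sign, and the difference between the muscles did not pass the test (adjusted P = 1.0).

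Insr, the insulin receptor gene, lies on chromosome 8 (3122061 to 3279617, GRCm38, minus strand). Its exon 11 is a 36-base coding exon, at chr8:3181702-3181737, that is included or skipped between exons 10 and 12. Both forms are shown from the reference genome with 20 bases of each neighbouring exon, because the exon bin measured below is the part in capitals. Here capitals mark exon 11, and 1 annotated coding transcript holds it and 1 lacks it.

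Insr with exon 11: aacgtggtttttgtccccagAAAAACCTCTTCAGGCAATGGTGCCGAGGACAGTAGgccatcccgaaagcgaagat
Insr without exon 11: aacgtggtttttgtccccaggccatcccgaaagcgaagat

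The exon 11 bin itself was read only a few times per library. In gastrocnemius it had 5, 6 and 5 counts in WT mice, 20, 26 and 30 counts in HSA-LR mice and 9, 12 and 2 counts in treated HSA-LR mice. The HSA-LR libraries stood above all others. The exon 11 count was set against the mean count of the bins of exons 10 and 12. This ratio was 0.0892 ± 0.00503 in WT, 0.232 ± 0.0398 in HSA-LR and 0.122 ± 0.0524 in treated mice (SD, n = 3). Relative coverage of the exon 11 bin was thus 2.6-fold that of WT in HSA-LR mice, opposite in direction to the exon 11 loss known in DM1. Noncoding bins of 3869 and 114 bases, held by no coding transcript, adjoin this bin on its 2 sides. Reads across exon junctions were not counted, so exon 11 in spliced RNA and in unspliced or noncoding RNA were not told apart. The 2-sided exact permutation test gave P = 0.1 for HSA-LR against WT and P = 0.1 for treated against untreated HSA-LR mice, the smallest value that 3 mice against 3 allow. Treated and WT mice overlapped (exact permutation P = 0.4).

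Tested against the other bins of its gene with edgeR's diffSpliceDGE, exon 11 was called higher in HSA-LR than WT gastrocnemius, by 1.89 on the log2 scale (adjusted P = 0.0704). The call was lost in 7 of the 9 analyses that each left out 1 library, with values of 1.74 to 2.05, and with the 5′ to 3′ coverage ratio as a covariate (1.59, adjusted P = 0.144). The DEXSeq model also called it (1.91, adjusted P = 0.0418), and limma voom with diffSplice did not (1.46, adjusted P = 0.599). The bin gave -1.27 in treated against untreated HSA-LR mice (adjusted P = 0.998). In quadriceps exon 11 had 15, 19 and 11 counts in WT, 4, 25 and 17 counts in HSA-LR and 13, 20 and 16 counts in treated mice, and all groups overlapped. The corresponding ratios were 0.223 ± 0.0814, 0.168 ± 0.0649 and 0.157 ± 0.0553 (SD, n = 3), and HSA-LR against WT gave an exact permutation P = 0.6.

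The Insr gene as a whole was at 40.54, 41.17 and 41.27 CPM in WT gastrocnemius, at 55.29, 52.82 and 58.54 CPM in HSA-LR and at 42.73, 50.81 and 35.16 CPM in treated HSA-LR gastrocnemius. HSA-LR mice lay above both other groups without overlap, and Insr rose by 34.5% over WT (log2 fold change 0.43 ± 0.12, adjusted P = 0.0539). The call held in 12 of 20 alternative analyses and was lost without WT mouse 2, without WT mouse 3 and without each other WT or HSA-LR library (adjusted P = 0.106 to 0.169). Treated against untreated HSA-LR mice gave -0.36 ± 0.12, which did not pass edgeR's test (adjusted P = 0.116). DESeq2 called it (-0.35, adjusted P = 0.0798), as did edgeR with upper-quartile scaling (-0.37, adjusted P = 0.0951) and without treated mouse 2 (-0.50, adjusted P = 0.051).

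Most of the added counts lay in the coding part of Insr. Its 23 coding bins together gave 11.2 ± 1.68 CPM in WT, 20.9 ± 1.4 CPM in HSA-LR and 12.4 ± 5.51 CPM in treated gastrocnemius (SD, n = 3), whereas a 2539-base bin of the 3′ UTR gave 17.6 ± 1.52, 18.6 ± 0.651 and 18.3 ± 0.469 CPM. The ratio of coding to 3′ UTR coverage was 0.673, 0.779 and 0.488 in WT mice and 1.05, 1.12 and 1.21 in HSA-LR mice, without overlap (exact permutation P = 0.1, the smallest possible). In treated mice it was 0.573, 1.02 and 0.446.

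This ratio moved with the coverage of the whole library. In gastrocnemius the 5′ to 3′ coverage ratio over 5235 genes was 0.681, 0.712 and 0.687 in WT, 0.733, 0.737 and 0.741 in HSA-LR and 0.677, 0.73 and 0.512 in treated mice, so the HSA-LR libraries were highest in both measures. In quadriceps, WT mouse 2 and HSA-LR mouse 2 both had a 5′ to 3′ ratio of 0.749, and their Insr ratios were 1.42 and 1.3. With this coverage ratio as a covariate, chosen after seeing the data, the gastrocnemius log2 fold change of Insr was 0.34 (adjusted P = 0.015), with only the coding bins counted it was 0.88 (adjusted P = 0.0625), and with only the 2539-base bin counted it was 0.11 (adjusted P = 0.484). The part of coverage in the Insr result beyond these values was not tested. In quadriceps Insr ranged from 39.7 to 60.1 CPM with overlapping groups, and its log2 fold change for HSA-LR against WT was 0.00 ± 0.167 (adjusted P = 0.99).

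**Figure D2:**
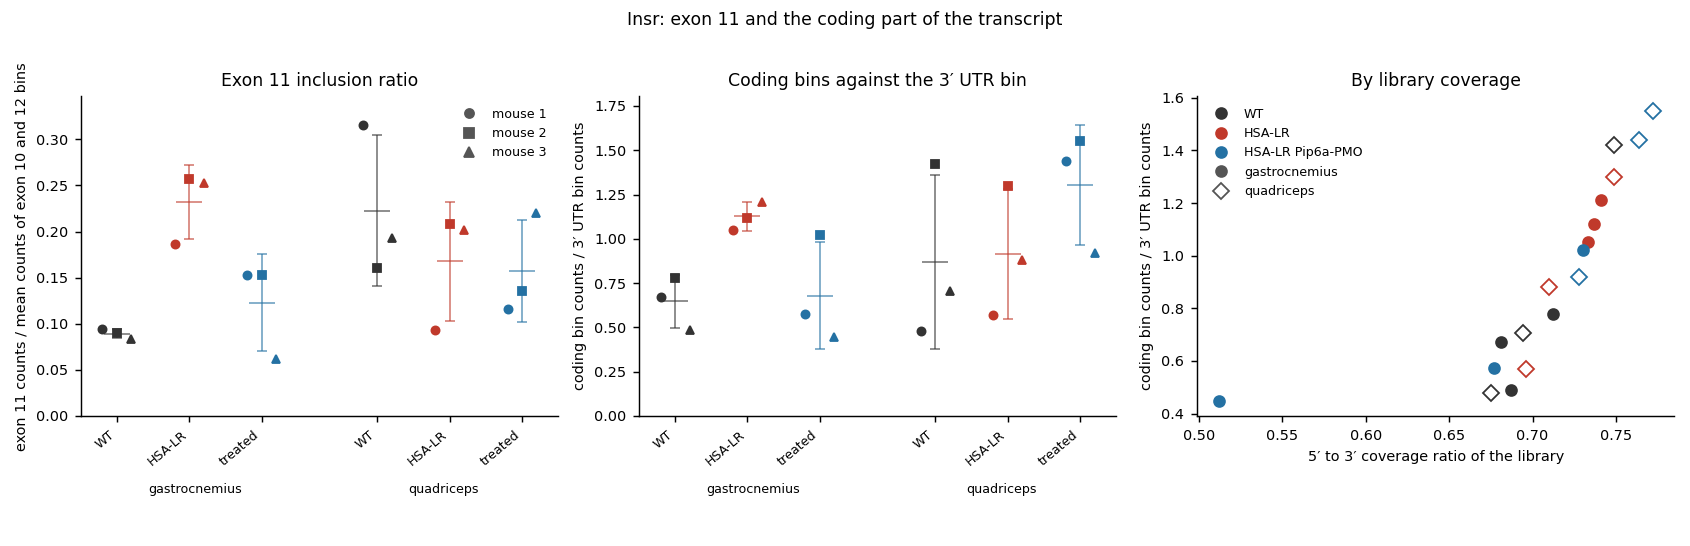
Insr in every library: exon 11 counts over the mean counts of the exon 10 and 12 bins (left), coding over 3′ UTR counts by group (middle), both with bars for mean ± SD (n = 3), and the same ratio against the library's 5′ to 3′ coverage ratio (right), with WT black, HSA-LR red and treated HSA-LR blue. In gastrocnemius the HSA-LR exon 11 ratios average 0.232 and the WT ratios 0.0892, and on the right the 3 libraries of a group stand in the same order on both axes in 5 of the 6 groups, WT gastrocnemius being the exception.

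Igf1r, on chromosome 7, encodes the receptor for IGF-1. It was among the steadiest of the 10 genes, from 5.991 to 9.066 CPM. Its groups overlapped in every comparison, with log2 fold changes for HSA-LR against WT of 0.08 ± 0.133 in gastrocnemius (adjusted P = 0.76) and -0.08 ± 0.133 in quadriceps (adjusted P = 0.753).

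Irs1, on chromosome 1 (82233101 to 82291416, GRCm38, minus strand), encodes the adaptor that carries the signal of both receptors to phosphoinositide 3-kinase, and it showed the largest called change of the 10 genes. In gastrocnemius it was at 43.74, 49.16 and 49.99 CPM in WT mice, at 21.46, 21.75 and 17.79 CPM in HSA-LR mice and at 25.31, 22.92 and 29.54 CPM in treated HSA-LR mice. The 3 groups did not overlap, with treated mice just above untreated HSA-LR mice. Irs1 fell by 57.6% in HSA-LR against WT mice (log2 fold change -1.24 ± 0.118, adjusted P = 0.000438), and the call held in all 20 alternative analyses. In treated against WT mice Irs1 fell by 45.7% (-0.88 ± 0.117, adjusted P = 0.0143, called in all 20 alternatives). The difference of treated from untreated HSA-LR mice did not pass edgeR's test (0.36 ± 0.117, adjusted P = 0.113). DESeq2 called it (0.37, adjusted P = 0.0512), as did edgeR with DESeq2 size factors (0.37, adjusted P = 0.0999).

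In quadriceps Irs1 was at 44.52, 61.85 and 64.66 CPM in WT, 28.97, 31.77 and 30.43 CPM in HSA-LR and 24.37, 26.31 and 47.28 CPM in treated HSA-LR mice. Every HSA-LR library lay below every WT library, and treated mouse 3 reached the WT range. Irs1 fell by 46.6% in HSA-LR mice (-0.91 ± 0.245, adjusted P = 0.0407). This call was lost without WT mouse 2 (adjusted P = 0.103), without WT mouse 3 (adjusted P = 0.113) and without HSA-LR mouse 1 (adjusted P = 0.115). Treated against WT mice gave -0.80 ± 0.245, which did not pass edgeR's test (adjusted P = 0.237). DESeq2 called it (-0.80, adjusted P = 0.0429), as did edgeR without treated mouse 3 (-1.17, adjusted P = 0.0272).

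Irs1 has 2 exon bins, a 4640-base exon with the coding sequence and a 4504-base exon of the 3′ UTR, and most counts fell in the latter. In gastrocnemius the UTR exon gave 41.1 ± 3.75 CPM in WT, 16.0 ± 2.09 CPM in HSA-LR and 22.2 ± 4.31 CPM in treated mice, and the coding exon 6.56 ± 1.64, 4.31 ± 0.165 and 3.7 ± 1.06 CPM (SD, n = 3). Both exons were lower in HSA-LR than in WT mice, but not in equal measure. The ratio of coding to UTR exon was 0.168, 0.203 and 0.113 in WT and 0.247, 0.261 and 0.307 in HSA-LR mice, without overlap. In treated mice it was 0.149, 0.273 and 0.109, and only the UTR exon had a higher mean than in untreated HSA-LR mice. Relative to the gene, the coding exon differed by 0.63 on the log2 scale between HSA-LR and WT mice, which did not pass the test (diffSpliceDGE, adjusted P = 0.298).

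Irs2, on chromosome 8, encodes the second adaptor and varied most of the 10 genes, 9.85-fold over the libraries. In gastrocnemius it was at 71.27, 63.92 and 32.33 CPM in WT, 46.94, 37.99 and 9.349 CPM in HSA-LR and 22.12, 10.3 and 8.111 CPM in treated mice. In quadriceps it was at 79.92, 39.49 and 29.77 CPM in WT, 77.87, 20.69 and 9.885 CPM in HSA-LR and 10.05, 8.979 and 11.97 CPM in treated mice. Treated libraries lay below all WT libraries in both muscles, and untreated HSA-LR mice overlapped with WT. In every group except treated quadriceps, Irs2 fell from mouse 1 to mouse 2 to mouse 3, an order whose cause was not tested. The differences from WT were large but did not pass edgeR's test: treated HSA-LR mice gave -2.05 ± 0.585 in gastrocnemius (adjusted P = 0.227) and -2.26 ± 0.677 in quadriceps (adjusted P = 0.224). DESeq2 called both (adjusted P = 0.0847 and 0.0883). Treated and untreated HSA-LR mice overlapped in both muscles. Their difference was -1.21 ± 0.573 in gastrocnemius (edgeR, adjusted P = 0.255) and -1.79 ± 0.667 in quadriceps (edgeR, adjusted P = 0.134). Of 20 alternatives, 1 called the difference in quadriceps, edgeR without HSA-LR mouse 3 (-2.24, adjusted P = 0.0462).

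Akt2, on chromosome 7 (27591552 to 27640826, GRCm38, plus strand), encodes the Akt kinase of the insulin response in muscle and fat. In gastrocnemius it was at 345.6, 336.7 and 362.6 CPM in WT mice, at 252.1, 258.4 and 254.8 CPM in HSA-LR mice and at 317.1, 367.8 and 329.3 CPM in treated HSA-LR mice. HSA-LR mice lay below both other groups, which overlapped. Akt2 fell by 27.3% in HSA-LR against WT mice (log2 fold change -0.46 ± 0.083, adjusted P = 0.0093) and rose by 33.2% in treated against untreated HSA-LR mice (0.41 ± 0.083, adjusted P = 0.0258). The first call held in all 20 alternatives and the second in 19, being lost without HSA-LR mouse 1 (adjusted P = 0.113). Treated against WT mice gave -0.05 ± 0.0829 (adjusted P = 0.894).

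In quadriceps Akt2 was at 417.8, 351.3 and 395.9 CPM in WT, 304.6, 297.8 and 292.7 CPM in HSA-LR and 343.8, 342.9 and 369.2 CPM in treated mice. HSA-LR mice again lay below both other groups. Akt2 fell by 23.0% against WT (-0.38 ± 0.0811, adjusted P = 0.0169), and the call held in all 20 alternatives. In treated against untreated HSA-LR mice the log2 fold change was 0.24 ± 0.081, which did not pass the test (adjusted P = 0.104), but was called without WT mouse 2 (0.24, adjusted P = 0.0747) and by DESeq2 (0.25, adjusted P = 0.0438).

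Of the 194 exon bins of the 10 genes, 149 were tested in gastrocnemius and 150 in quadriceps. In gastrocnemius 2 were called between HSA-LR and WT mice, Insr exon 11 and an Akt2 bin, where 0.819% of all bins were called (0.591% higher and 0.228% lower), and 1, the same Akt2 bin, between treated and untreated HSA-LR mice (0.309% of all bins, 0.113% higher). None was called between treated HSA-LR and WT gastrocnemius by diffSpliceDGE, limma voom with diffSplice or the DEXSeq model (1 at an unadjusted P under 0.05, with 0.0654% of all bins called). In quadriceps diffSpliceDGE called none: HSA-LR against WT had 1 bin at an unadjusted P under 0.05 and none by the other tools (0.284% of all bins called). Treated against untreated HSA-LR quadriceps had 2 bins at an unadjusted P under 0.05 and 1 called by each other tool, as by diffSpliceDGE without WT mouse 2 (0.168%). Treated HSA-LR against WT quadriceps had 3 at an unadjusted P under 0.05, 1 called by limma voom and none by the DEXSeq model (0.0353%).

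The Akt2 bin is an 80-base noncoding piece of an alternative 5′ exon, at chr7:27605858-27605937 on the plus strand, annotated in 3 of 11 coding transcripts. It carried few of the gene's reads. In gastrocnemius it had 50, 48 and 150 counts in WT, 12, 23 and 2 counts in HSA-LR and 35, 64 and 33 counts in treated mice, or 0.1691% ± 0.102, 0.03719% ± 0.03084 and 0.1089% ± 0.02866 of the gene's counts (SD, n = 3). The HSA-LR libraries lay below both other groups. Relative to the rest of Akt2 the bin fell by 2.17 on the log2 scale in HSA-LR against WT mice (diffSpliceDGE, adjusted P = 2.89e-08), and by 1.53 without WT mouse 3 (adjusted P = 0.0111), whereas the DEXSeq model gave -2.27 and did not call it (adjusted P = 0.115). It rose by 1.52 in treated against untreated HSA-LR mice (adjusted P = 0.00502), a call lost without HSA-LR mouse 3 (1.05, adjusted P = 0.832) or treated mouse 2 (adjusted P = 0.14). The neighbouring bin of the same exon gave -1.35 for HSA-LR against WT (adjusted P = 0.42).

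In quadriceps the bin had 118, 90 and 125 counts in WT, 61, 115 and 28 counts in HSA-LR and 62, 67 and 44 counts in treated mice. HSA-LR libraries overlapped with both other groups, while treated libraries lay below all WT libraries. No comparison passed diffSpliceDGE's test (-0.44 for HSA-LR against WT and -0.83 for treated HSA-LR against WT, adjusted P = 1.0 for both), whereas limma voom with diffSplice called the latter (-0.83, adjusted P = 0.0403).

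The 250 bases before the start of the main first exon and of the alternative first exon of Akt2 are shown from the reference (RefSeq table, GRCm38.p6, plus strand), since the bin that differed lies in the alternative exon. Of the 3 coding transcripts with that bin, 1 also holds the first bases of the exon, where the second region ends, and the others begin later. Capitals mark the motif CANNTG (E-box), which reads the same on both strands. The main region is chr7:27591302-27591551 and the alternative region chr7:27605547-27605796.

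Akt2 main first exon: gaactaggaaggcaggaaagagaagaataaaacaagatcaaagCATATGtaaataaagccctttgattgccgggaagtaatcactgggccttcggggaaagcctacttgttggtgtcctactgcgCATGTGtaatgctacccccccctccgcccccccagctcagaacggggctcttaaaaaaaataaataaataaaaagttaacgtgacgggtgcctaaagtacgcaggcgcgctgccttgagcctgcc
Akt2 alternative first exon: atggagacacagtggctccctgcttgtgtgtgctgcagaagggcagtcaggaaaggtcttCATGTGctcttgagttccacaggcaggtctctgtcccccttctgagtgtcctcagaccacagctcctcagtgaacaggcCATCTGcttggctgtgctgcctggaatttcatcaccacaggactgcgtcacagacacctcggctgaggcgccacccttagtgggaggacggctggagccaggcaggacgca

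Each region held 2 matches to CANNTG, which was present in 66.2% of 32817 promoter windows of the same length. GGGCGG, searched on both strands, was found once before the main exon and not before the alternative exon, and 32.7% of all promoter windows held it. Neither region held TATAAA, present in 12.4% of windows. The main region had a GC content of 48.8% with 10 CG dinucleotides, and the alternative region 58.8% with 5.

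**Figure D3:**
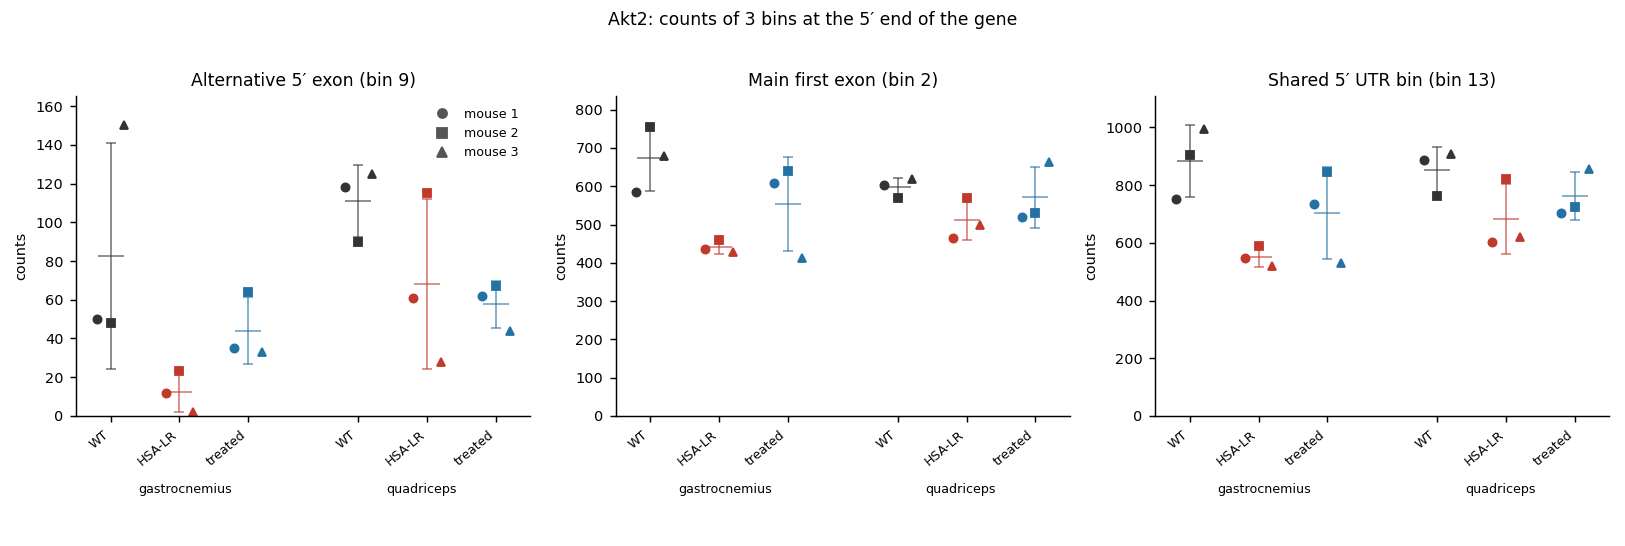
Counts (vertical axis from 0) of 3 Akt2 bins near the 5′ end in every library: the alternative 5′ exon bin, the main first exon and a 5′ UTR bin that the transcripts share, by group and muscle, with bars for mean ± SD (n = 3) and marker shape for mouse 1, 2 or 3. In gastrocnemius the alternative bin has 2 to 23 counts in HSA-LR libraries and 48 to 150 in WT libraries.

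Slc2a4, on chromosome 11, encodes the insulin-responsive glucose transporter GLUT4. It was the most abundant of the 10 genes and the least variable, 1.47-fold from lowest to highest library. In quadriceps it was at 667.3, 625.2 and 728.5 CPM in WT, 587.5, 619.6 and 674.8 CPM in HSA-LR and 799.8, 829.3 and 683.2 CPM in treated mice. Treated libraries all lay above untreated HSA-LR libraries, but the log2 fold change of 0.30 ± 0.104 did not pass edgeR's test (adjusted P = 0.114). DESeq2 called this difference (0.30, adjusted P = 0.0535), as did edgeR without treated mouse 3 (0.37, adjusted P = 0.0728) and without HSA-LR mouse 3 (0.36, adjusted P = 0.0787). In gastrocnemius Slc2a4 was at 679.1, 649.4 and 695.6 CPM in WT, 728.1, 725.3 and 692.1 CPM in HSA-LR and 858.2, 865.7 and 587.5 CPM in treated mice. The last value came from the library with the lowest 5′ to 3′ coverage. The log2 fold change in treated against untreated HSA-LR gastrocnemius was 0.12 ± 0.141 (adjusted P = 0.673), and 0.27 (adjusted P = 0.0781) without that library.

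**Figure D4:**
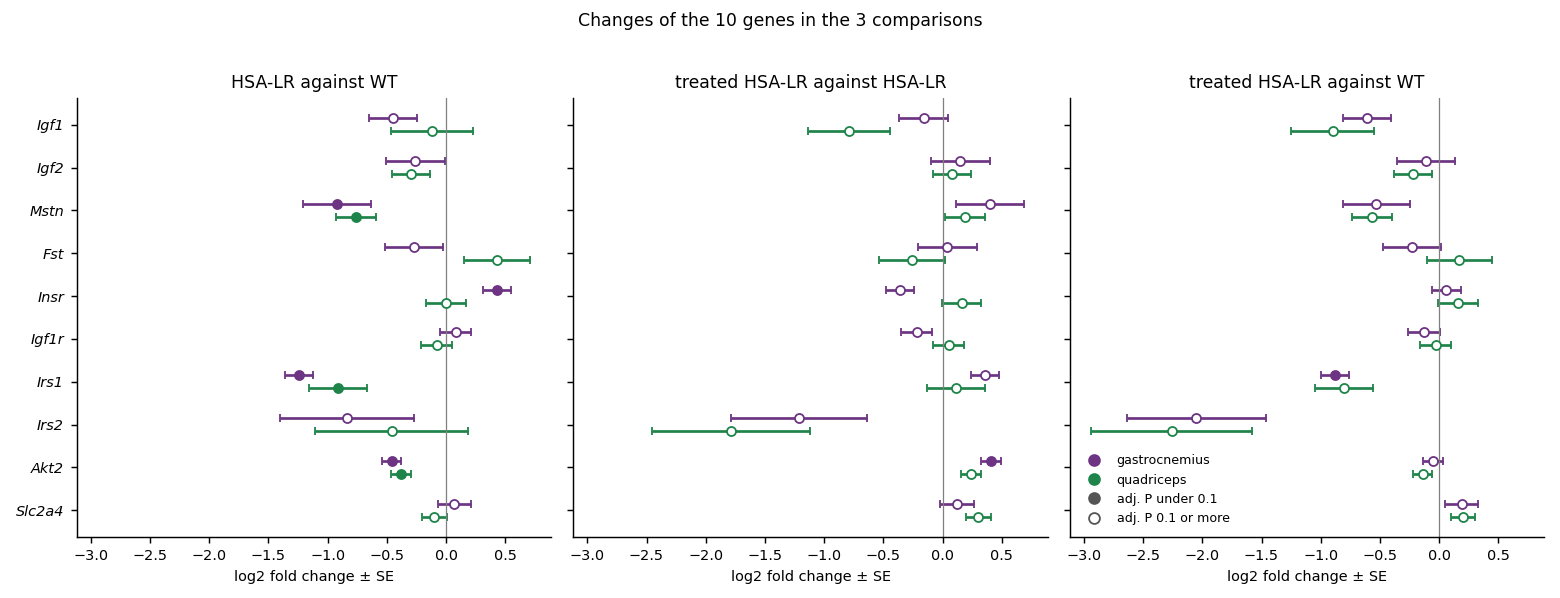
Log2 fold change (edgeR, bars ± SE) of the 10 genes for HSA-LR against WT, treated against untreated HSA-LR and treated HSA-LR against WT mice, purple for gastrocnemius and green for quadriceps, filled where adjusted P was under 0.1. In gastrocnemius Irs1 is at -1.24 in the first comparison and -0.88 in the last, and Akt2 at -0.46 and -0.05.

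The changes of the 10 genes were then compared between the muscles by the interaction of condition and muscle over all 18 libraries. None was called by edgeR for HSA-LR against WT, with none at an unadjusted P under 0.05 and none by limma voom, and 0.0% of all 16167 genes were called. For treated against untreated HSA-LR mice none was called either by edgeR or limma voom, and edgeR again called 0.0% of all genes. Of the 10, 1 had an unadjusted P under 0.05, beside 1271 of all 16167 genes. The smallest P values in both tests belonged to Insr, whose change was 0.44 ± 0.214 higher in gastrocnemius for HSA-LR against WT (adjusted P = 1.0) and was -0.53 ± 0.214 relative to quadriceps for treated against untreated HSA-LR mice (adjusted P = 0.63). A difference between the muscles was therefore not shown for any of the 10.

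A list of 71 further genes of these pathways was read in the same fits, 48 on the insulin and IGF side and 23 on the myostatin and activin side. In HSA-LR against WT gastrocnemius 21 of 71 were called, 9 higher and 12 lower, and in quadriceps 21 of 70, 10 higher and 11 lower (29.6% and 30.0%, beside 15.5% and 20.3% of all genes). The median log2 fold change of the list was 0.0 and -0.02, beside -0.01 and 0.005 over all genes. Between treated and untreated HSA-LR mice 10 were called in gastrocnemius (5 higher, 5 lower, 14.1%) and 11 in quadriceps (8 higher, 3 lower, 15.7%), beside 10% and 13.8% of all genes. Treated HSA-LR against WT mice left 1 called in gastrocnemius (1.41%) and 3 in quadriceps (4.29%), beside 1.04% and 1.41% of all genes.

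In HSA-LR against WT mice 12 genes of the list were called in both muscles, and 9 of the 10 with the smallest P values are described. On the insulin and IGF side, Igfbp5, a secreted IGF-binding protein of muscle, fell from 639.5 ± 38.04 to 182.9 ± 31.39 CPM in gastrocnemius and from 811.2 ± 148.3 to 202.7 ± 26.74 CPM in quadriceps (SD, n = 3). In treated mice it was at 409.1 ± 56.51 and 608.0 ± 134.7 CPM, higher than in untreated HSA-LR mice (log2 fold change 1.17, adjusted P = 0.00346, and 1.59, adjusted P = 0.00347). Tbc1d1, a Rab GTPase-activating protein that restrains GLUT4 traffic and is a substrate of Akt and AMPK, rose from 47.68 ± 2.491 to 195.4 ± 77.78 CPM in gastrocnemius and from 32.43 ± 1.453 to 143.9 ± 81.17 CPM in quadriceps. It was lower in treated than in untreated HSA-LR gastrocnemius (-1.62, adjusted P = 0.0163), and in quadriceps the difference of -0.95 did not pass the test (adjusted P = 0.155).

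Smaller changes were called in HSA-LR against WT mice for 3 more genes described on this side. Gsk3a, a kinase gene that restrains glycogen synthesis, fell by 0.33 and 0.35 on the log2 scale in gastrocnemius and quadriceps, the transcription factor gene Foxo4 fell by 0.43 and 0.42, and Ide, which encodes the insulin-degrading protease, fell by 0.36 and 0.48. Gsk3a and Foxo4 rose in treated against untreated HSA-LR mice in both muscles (0.34 and 0.26 in gastrocnemius, 0.24 and 0.36 in quadriceps), and Ide rose in quadriceps (0.50, adjusted P = 0.0219).

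On the myostatin and activin side, Acvr2a, an activin type II receptor gene, fell from 31.63 ± 11.11 to 13.45 ± 0.7358 CPM in gastrocnemius and from 39.57 ± 15.03 to 12.88 ± 1.208 CPM in quadriceps. Its mean in treated mice was 13.98 ± 2.038 and 15.45 ± 1.383 CPM (SD, n = 3), and edgeR called it lower than WT in both muscles (-1.18, adjusted P = 0.0808, and -1.35, adjusted P = 0.0567). In gastrocnemius it was the 1 gene of the list called, and no gene of the list was called there by limma voom, with 2 groups fitted, with the coverage covariate, with coding bins only, with the replicate number as a block or in 8 of the 9 fits that left out 1 library, the exception being the fit without WT mouse 3 (2 called). In quadriceps the list's count was 0 with 2 groups fitted, with the covariate, with the block and without WT mouse 1, WT mouse 2, HSA-LR mouse 2 or treated mouse 1. Smad3, which transmits the signal to the nucleus, fell by 0.92 and 0.98 on the log2 scale and rose in treated against untreated HSA-LR mice (0.74, adjusted P = 0.0677, and 1.14, adjusted P = 0.00432). Gdf11, which encodes a ligand closely related to myostatin, rose from 6.19 ± 2.086 to 15.48 ± 2.053 CPM in gastrocnemius and from 5.624 ± 1.144 to 12.71 ± 0.8783 CPM in quadriceps. In treated mice it was at 11.09 ± 3.291 and 13.81 ± 4.256 CPM, and edgeR called it higher than WT in treated quadriceps. Gdf11 and Mstn, which share their receptors, changed in opposite directions. Furin, a protease gene whose product cleaves precursors of these ligands, fell by 0.54 and 0.39 on the log2 scale.

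**Figure D5:**
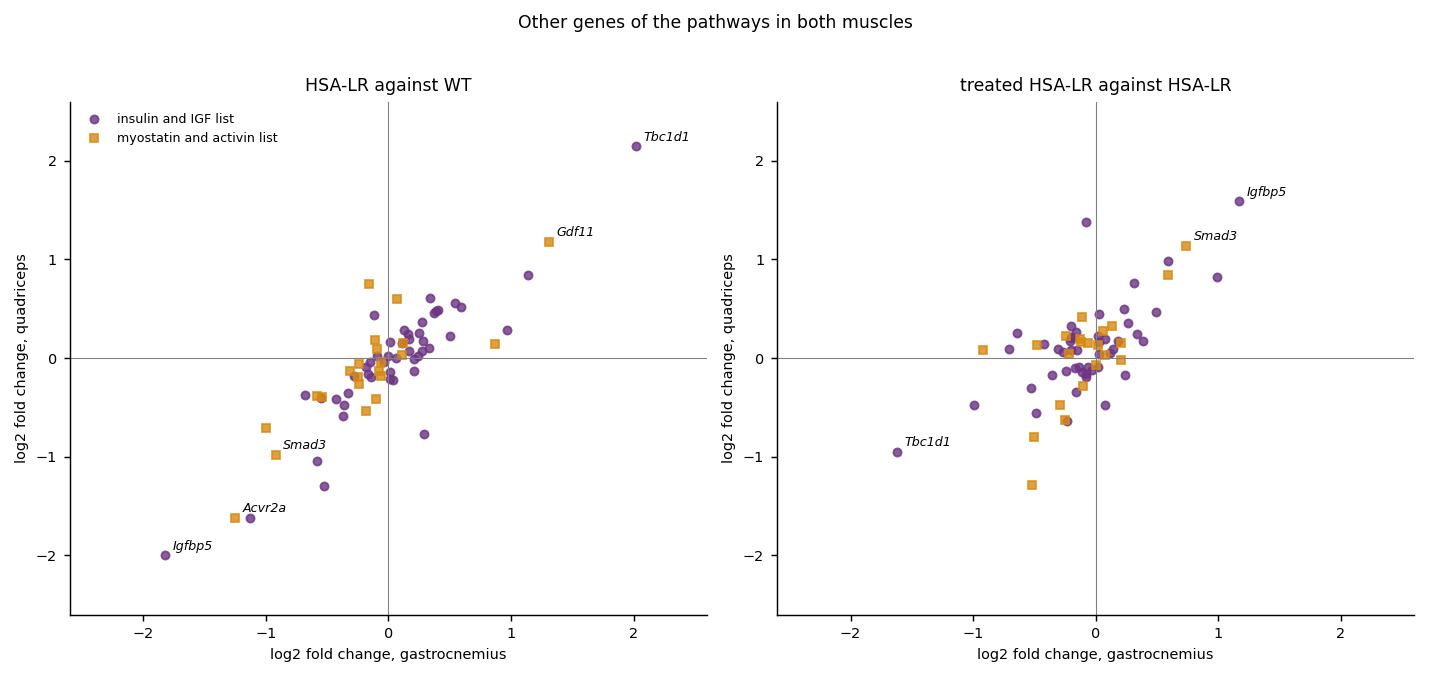
Log2 fold change (edgeR) of each gene of the pathway list in gastrocnemius (horizontal) and quadriceps (vertical), for HSA-LR against WT (left) and treated against untreated HSA-LR mice (right), circles for the insulin and IGF side and squares for the myostatin and activin side. On the left Igfbp5 is at -1.82 and -2.0 and Tbc1d1 at 2.02 and 2.15.

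In bulk muscle, fewer cells of a type and less RNA per cell cannot be told apart, so markers of other cells were read beside the changes. Irs1, Akt2 and Mstn were called lower in HSA-LR than WT mice in both muscles. In quadriceps 6 of 7 macrophage markers were higher in HSA-LR than WT mice and 6 of 7 lower in treated than untreated HSA-LR mice. Their summed level was 46.9 to 66.4 CPM in WT, 89.2 to 116.0 CPM in HSA-LR and 45.0 to 65.4 CPM in treated mice. Of 7 muscle fiber markers, 2 were lower in HSA-LR than WT quadriceps and 2 higher in treated than untreated HSA-LR quadriceps, and in gastrocnemius 1 was higher in the first comparison and 2 were higher and 1 lower in the second. In gastrocnemius 2 of 7 macrophage markers were higher and 3 of 7 lower in those comparisons, with sums of 61.4 to 82.7, 76.3 to 88.2 and 49.1 to 79.6 CPM.

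None of 7 adipocyte markers was called in any comparison by edgeR, although adipocytes also express Irs1, Akt2 and Slc2a4. In gastrocnemius their summed level was 287.0 to 354.0 CPM in WT, 167.0 to 239.0 in HSA-LR and 205.0 to 524.0 CPM in treated mice. There the HSA-LR libraries lay below all WT libraries. In quadriceps the sums were 405.0 to 1410.0, 127.0 to 1400.0 and 162.0 to 334.0 CPM in the same order. HSA-LR and WT quadriceps overlapped, and treated quadriceps lay below all WT libraries. In HSA-LR against WT quadriceps, 3 of 5 endothelial and 3 of 4 Schwann cell markers were lower, and 2 of the 3 fibroblast markers tested were higher. Of all 15574 genes, 1719 were called higher there and 1450 lower. In treated against untreated HSA-LR quadriceps 2 of 4 Schwann cell markers were higher and 1 of 3 fibroblast markers lower, beside 1019 genes higher and 1124 lower. For HSA-LR against WT, 1 of 4 satellite cell markers was higher in each muscle and 1 of 3 tendon markers in quadriceps. No erythroid marker was called. Slow fiber markers summed to 1480.0 to 11800.0 CPM in gastrocnemius and 18.1 to 1590.0 CPM in quadriceps, and 4 of 6 were higher in treated than in untreated HSA-LR quadriceps. Of the 5 fibroblast markers listed, 3 were found under their symbols and the rest were not read. No defining marker that was found was at 0 in all libraries, and the part of these cells in the changes of the 10 genes was not tested.

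Over the 18 libraries, the genes whose log2 CPM followed 9 of the 10 most closely were ranked by Pearson's r over 15263 genes, as a description, since all points share their group and library. Akt2 was most like Laptm4b (r = 0.965), Exd1 (0.945) and Gpd2 (0.943), and Irs1 most like Akirin1 (0.929), Reep1 (0.908) and 1110008L16Rik (0.907). Irs2 was closest to Mafk (0.963), Mnt (0.923) and Sik1 (0.911), and Insr to Zfp106 (0.937), Slk (0.928) and Nepro (0.911). Mstn was closest to Hsd17b7 (0.909), Igf1 to Slco2b1 (0.911), Igf2 to Kdm5c (0.861), Fst to Csf1 (0.84) and Igf1r to Dpp8 (0.832).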

How the data were processed

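Polyadenylated RNA of each muscle was sequenced with a stranded library, 1 library per mouse and muscle. The authors deposited 1 table of read counts per exon bin for each library, raw and not normalized. The submitters' processing notes name CASAVA, HISAT, featureCounts 1.5.0 and GRCm38, and whether a read crossing several bins is counted in each is not given in the sources used here. Lines that name no gene took 2.82% to 4.14% of each library and entered no total or test.

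Groups came from the sample labels. Bins were summed to genes, and each muscle's 9 libraries were fitted together with edgeR 4.0.16 (glmQLFit and glmQLFTest, TMM normalization, filterByExpr with a minimum count of 10 and total of 15) in R 4.3.3. Bins were tested with diffSpliceDGE against the rest of their gene, and its coefficients were converted from natural logarithms to log2. P values were adjusted by Benjamini-Hochberg over all genes or bins, with calls at adjusted P under 0.1. P values measure the spread between these mice. The SE of a gene's log2 fold change was derived as its absolute value over the square root of the test's F statistic. Exon 11 ratios were tested by 2-sided exact permutation. The intervals and tests of low counts cover counting error only in part, since reads carried no molecular identifiers. The edgeR gene and bin tests were also run on simulated counts. Only well-read genes and bins were changed there, so counts as low as those of Insr exon 11 were not covered. Alternatives included DESeq2 1.42.0, limma 3.58.1, other scalings and filters, and leaving out each mouse; coding bins alone and the 5′ to 3′ coverage covariate for genes were chosen after seeing the data.

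The 10 genes, the pathway and marker lists and the tests were chosen with earlier results of these data known. Pathway genes were named if called in HSA-LR against WT mice in both muscles, at most the 10 with the smallest geometric mean P. Of the genes that the naming rules gave, 2 are not reported here. The 5′ to 3′ ratio is the median over genes of the coverage of the 5′ relative to the 3′ part. Exon positions and annotation came from GENCODE M21, whose bins matched in all 41211 genes listed with the same version. Both muscles came from the same mice according to the study's text on treated mice. The deviations of the same mouse from its group means correlated at 0.091 to 0.548 between muscles (9 pairs). Between groups, equal replicate numbers were not treated as a pairing in the main fits.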

Additional observations from a re-analysis of the deposited data

How the results depend on the processing

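Of the 10 genes, the calls of Irs1 and Akt2 in HSA-LR against WT gastrocnemius, of Akt2 and Mstn in HSA-LR against WT quadriceps and of Irs1 in treated HSA-LR against WT gastrocnemius held in all 20 alternatives. Where a call was lost or gained the cause was not tested. The share of all genes or bins called under each setting is not given in this section. A moved count is therefore no result about the 10 genes, the pathway list or their bins by itself. Counts of calls that moved were as follows. Of the 10 genes, treated against untreated HSA-LR gastrocnemius (1 called) gave 2 with the 5′ to 3′ covariate, 3 with DESeq2, 2 with DESeq2 size factors and 2 with upper-quartile scaling. Treated HSA-LR against WT gastrocnemius (1) gave 2 with DESeq2. Treated against untreated HSA-LR quadriceps (0) gave 1 with only those 2 groups fitted, 3 with DESeq2 and 1 with the largest bin, and treated HSA-LR against WT quadriceps (0) gave 1 with 2 groups and 3 with DESeq2. In the pathway list, treated HSA-LR against WT gastrocnemius (1) gave 0 with 2 groups, with the covariate, with coding bins only and with limma voom, 2 with the largest bin, 2 without a filter and 6 with DESeq2. Treated against untreated HSA-LR quadriceps (11) gave 3 with the covariate, 17 with DESeq2 and 7 without a filter, and treated HSA-LR against WT quadriceps (3) gave 0 with 2 groups, 0 with the covariate, 7 with DESeq2 and 1 with coding bins only.

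Of the exon bins, HSA-LR against WT gastrocnemius (2) gave 1 with the covariate, 4 with the DEXSeq model, 4 with limma voom (Insr exon 11 not among them) and 0 with at least 10 counts in every library, which removes both called bins. Treated against untreated HSA-LR mice gave 0, 3 and 0 under the last 3 settings in gastrocnemius (1) and 1 under each in quadriceps (0), and treated HSA-LR against WT quadriceps (0) gave 1 with limma voom. As a share of all Insr counts, the exon 11 log2 ratio of treated to untreated HSA-LR quadriceps was 0.14 in place of -0.09.

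With the replicate number as a block, pathway calls fell to 6 in treated against untreated HSA-LR gastrocnemius and to 0 in treated HSA-LR against WT in both muscles, and calls among the 10 genes rose to 2 in treated HSA-LR against WT gastrocnemius and to 1 in treated against untreated HSA-LR quadriceps, where 1 bin was called too. In HSA-LR against WT gastrocnemius the block left Insr at 0.43 (adjusted P = 0.103) and Mstn at -0.90 (adjusted P = 0.16) uncalled and called Irs2 at -1.02 (adjusted P = 0.0878). Same-numbered mice of different groups correlated between -0.273 and 0.258. This range overlaps the 0.091 to 0.548 between the muscles of a mouse, so it cannot settle whether equal numbers share a handling step, which was not tested. In the comparisons between muscles, the mouse as a block changed no call of the 10 genes.

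Leaving out 1 mouse at a time gave these ranges of calls among the 10 genes: 2 to 4 in HSA-LR against WT, 0 to 2 in treated against untreated HSA-LR and 1 to 2 in treated HSA-LR against WT gastrocnemius, and 0 to 3 and 0 to 1 in the last 2 comparisons in quadriceps. For the pathway list they were 11 to 25, 4 to 15 and 0 to 2 in gastrocnemius and 5 to 14 and 0 to 4 in quadriceps. For bins they were 1 to 2 and 0 to 2 in gastrocnemius and 0 to 1 in treated against untreated HSA-LR quadriceps.

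Every sign that reversed belonged to a difference that was not called. With the covariate, log2 fold changes became -8.3e-04 (Igf1r) and -0.03 (Slc2a4) in HSA-LR against WT, -0.24 (Fst) in treated against untreated HSA-LR and 0.04 (Igf2) in treated HSA-LR against WT gastrocnemius. In quadriceps Insr became -0.08, -0.10 and -0.18 in the 3 comparisons, Igf1r -0.10 and Insr exon 11 -0.07 in treated against untreated HSA-LR mice. With the largest bin, values became -0.04 (Igf1r, HSA-LR against WT) and 0.03 (Akt2, treated HSA-LR against WT) in gastrocnemius and -0.02, -0.06 and -0.08 (Insr), -0.05 (Igf1r), -0.09 (Igf2) and -0.03 (Fst) in quadriceps. Between WT muscles they became 0.28 (Igf1), 0.05 (Igf2) and -0.02 (Slc2a4), and -0.05 for the difference between muscles of Igf2. With coding bins only, Igf1 became 0.28 and Igf1r 0.01 in gastrocnemius and Igf1r 0.20 in quadriceps. Insr in HSA-LR against WT quadriceps, 4.8e-03, became -4.2e-03 with DESeq2, -4.3e-03 with its size factors and -0.01 without a filter.

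Leaving out 1 mouse also reversed signs of uncalled differences. In gastrocnemius the ranges were -0.45 to 0.02 (Igf2, HSA-LR against WT), -0.41 to 0.01 (Igf1) and -0.17 to 0.19 (Fst) in treated against untreated HSA-LR, and -0.08 to 0.19 (Insr), -0.23 to 0.0011 (Igf1r) and -0.29 to 0.17 (Igf2) in treated HSA-LR against WT mice. In quadriceps they were -0.09 to 0.17 (Insr), -0.17 to 0.09 (Igf1r), -0.4 to 0.19 (Igf1) and -1.71 to 0.05 (Irs2) in HSA-LR against WT, -0.03 to 0.2 (Igf2) and -0.27 to 0.28 (Irs1) in treated against untreated HSA-LR, and -0.11 to 0.14 (Igf1r) and -0.05 to 0.4 (Fst) in treated HSA-LR against WT mice. Insr exon 11 in quadriceps ranged over -0.45 to 0.19, -0.26 to 0.39 and -0.2 to 0.05, and the Akt2 bin over -0.72 to 0.07. The difference between muscles ranged over -0.1 to 0.2 (Igf2), -0.82 to 0.45 (Irs2) and -0.3 to 0.19 (Mstn) for HSA-LR against WT, and over -0.08 to 0.18 (Igf2) and -0.23 to 1.03 (Irs2) for treated against untreated HSA-LR mice. WT gastrocnemius against quadriceps ranged over -0.13 to 0.04 (Igf1), -0.18 to 0.11 (Igf2), -0.07 to 0.48 (Irs2), -0.01 to 0.04 (Slc2a4) and -0.11 to 0.38 (Mstn).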
